A study of Mus musculus with 36 samples.

Results

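Cytochrome P450 genes encode haem-containing monooxygenases. The 98 genes described here are those whose symbol is Cyp followed by 1 or 2 digits, a letter and further digits, with pseudogenes left out, and whose Ensembl identifier occurs in all 6 count tables, which have 51413 genes in common. They fall into 16 families and 38 subfamilies on 14 chromosomes. Of the 98 genes, 76 lie in 10 chromosomal groups, the largest being 14 Cyp2c genes on chromosome 19 and 13 genes of the Cyp2a, Cyp2b, Cyp2f, Cyp2g, Cyp2s and Cyp2t subfamilies on chromosome 7. Cyp51, the lanosterol demethylase of cholesterol synthesis, and Cyp2ab1 have symbols outside the rule and are not members.

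The mice were C57BL/6 wildtype by their labels and C57BL/6N in the study's methods. Sperm came from the cauda epididymis of males fed from 6 weeks of age for 2 weeks on high fat diet (HFD) or low fat diet (LFD), with 3 libraries per diet, and morulae were obtained by in vitro fertilization with sperm of males fed in the same way, again with 3 libraries per diet of the father. The other 4 tables hold 6 libraries each of round spermatids, the haploid germ cells of the testis that precede sperm, from males fed HFD or LFD for 2 weeks (3 samples per diet by the labels), and of liver, epididymal white adipose tissue (eWAT) and gastrocnemius muscle (GAS) of chow-fed male offspring of HFD-fed fathers that were glucose tolerant (HFDt) or intolerant (HFDi). The columns of these 4 tables carry a library number but no diet or tolerance, so the round spermatid libraries mix both diets, the others were compared only by tissue, and the liver libraries are named here by their numbers, 13 to 16, 23 and 24. The labels of 3 morula samples contradict themselves, since the diet in their free-text description is not that of their title and treatment, and the title and treatment were followed here. Apart from round spermatids, for which the methods give 3 mice per diet, whether the libraries of a group came from separate animals is not stated for each library, and p-values then measure only the spread between these libraries, which may be technical.

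P450 enzymes use electrons from NADPH, delivered by cytochrome P450 reductase in the endoplasmic reticulum or by ferredoxin in mitochondria, to place an oxygen atom into fatty acids, sterols, retinoids, vitamin D, drugs and toxins. The liver is known for the widest set of them: bile acids are made from cholesterol by Cyp7a1, Cyp27a1, Cyp7b1 and Cyp8b1, fatty acids are hydroxylated at their end by the Cyp4a enzymes, and foreign compounds are oxidised by enzymes of families Cyp1, Cyp2 and Cyp3. Several genes are textbook targets of single receptors, among them Cyp4a10 and Cyp4a14 of PPARalpha, Cyp1a1, Cyp1a2 and Cyp1b1 of the aryl hydrocarbon receptor (AhR), Cyp2b10 of CAR and Cyp3a11 of PXR.

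The 6 genes shown here stand for the expression patterns described below: Cyp8b1 and Cyp2d9 for genes read almost only in liver, Cyp2e1 for liver and fat, Cyp1b1 for fat among the offspring tissues, Cyp27a1 for liver, muscle and fat, and Cyp2s1 for the morula. Each sequence is the 150 bases before the annotated RefSeq start (GRCm38.p6), 5′ to 3′ on the strand of the gene. Capitals mark matches, on either strand, to the letters TATAAA (called TATA below), to GGGCGG (GC box), to CCAAT, to CAAAGTC (HNF4 core) or to GCGTG (AhR core).
Cyp8b1, chr9:121916306-121916455, minus strand: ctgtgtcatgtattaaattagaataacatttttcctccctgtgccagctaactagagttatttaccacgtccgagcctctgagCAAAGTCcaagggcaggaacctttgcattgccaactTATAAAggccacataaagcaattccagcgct
Cyp2d9, chr15:82452227-82452376, plus strand: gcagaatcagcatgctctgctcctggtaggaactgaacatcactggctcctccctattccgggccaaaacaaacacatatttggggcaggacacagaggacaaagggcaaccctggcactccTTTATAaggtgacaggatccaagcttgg
Cyp2e1, chr7:140763669-140763818, plus strand: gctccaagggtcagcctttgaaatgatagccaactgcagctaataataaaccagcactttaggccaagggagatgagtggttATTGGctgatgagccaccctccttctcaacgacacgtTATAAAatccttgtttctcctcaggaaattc
Cyp1b1, chr17:79715062-79715211, minus strand: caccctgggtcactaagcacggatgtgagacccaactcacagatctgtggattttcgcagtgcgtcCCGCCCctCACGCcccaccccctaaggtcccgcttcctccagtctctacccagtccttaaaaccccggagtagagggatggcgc
Cyp27a1, chr1:74713385-74713534, plus strand: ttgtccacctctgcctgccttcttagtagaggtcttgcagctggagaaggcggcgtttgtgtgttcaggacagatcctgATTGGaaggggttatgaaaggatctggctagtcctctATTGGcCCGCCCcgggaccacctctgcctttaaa
Cyp2s1, chr7:25816526-25816675, minus strand: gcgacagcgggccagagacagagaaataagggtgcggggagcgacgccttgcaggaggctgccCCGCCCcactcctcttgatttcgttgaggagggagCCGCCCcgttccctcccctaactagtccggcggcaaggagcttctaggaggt
The TATA match ends at base -26 in Cyp8b1 and Cyp2e1 and at base -23 in Cyp2d9, counted back from the start, and the windows of Cyp1b1, Cyp27a1 and Cyp2s1 hold a GC box and no TATA match. In Cyp8b1 and Cyp2e1 this match is on the strand of the gene, and in Cyp2d9 on the opposite strand. The HNF4 core of Cyp8b1 spans bases -67 to -61, and the AhR core of Cyp1b1 spans bases -76 to -72. The letters GTTAAT (HNF1 motif) and AGGTCA (nuclear receptor motif) were searched as well and have no match in these 6 windows. Matches were counted on both strands, and an overlap with another motif was allowed.

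RefSeq windows were at hand for 75 of the 98 members, including 29 with a mean of at least 10 CPM in liver, a count scaled to the size of its library. A TATA match was found in 26 of the 75 (34.7%) and in 15 of those 29 (51.7%), beside 7.57% of the 32851 promoters in the table. The HNF4 core was found in 17 of the 75 (22.7%) and in 8 of the 29 (27.6%), beside 2.25% of all promoters. The GC box went the other way, with 13 of the 75 (17.3%) against 28.6% of all promoters. CCAAT was in 29.3% of members and 24.5% of all promoters, the HNF1 motif in 4% and 3.71%, the nuclear receptor motif in 10.7% and 8.58%, and AhR cores in 14.7% and 20.5%. Among the 29 liver genes the GC box was in 20.7%, CCAAT in 41.4% and AhR cores in 6.90%. The HNF1 and nuclear receptor motifs were each in 3.45% of them. Members of a cluster share sequence by descent and are not independent. Each member entered with a single window, its first entry, whereas the 32851 promoters were not reduced to a window per gene. The counts used here are per gene and measure no start site, and the gene models of the count tables begin upstream of the printed window in Cyp2s1 and Cyp2d9 and inside it in Cyp2e1.

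Liver, eWAT and GAS were read with a 3′ kit that gives about 1 read per transcript, so levels in CPM can be compared between genes there, whereas round spermatid, sperm and morula libraries cover whole transcripts and are compared between genes per kilobase. Total counts were 2036237 to 2552454 in liver, 1338149 to 4055537 in eWAT, 369772 to 2749920 in GAS, 20138842 to 31056066 in round spermatids, 2560219 to 4062321 in sperm and 11471251 to 12153141 in morulae. A count of 0 in 1 library allows up to 3 counts, which is up to 1.47 CPM in liver and up to 8.11 CPM in the shallowest GAS library (number 4). Defining markers stood out in their own tissue, with summed levels of 46281 to 63044 CPM for hepatocyte genes in liver, 15188 to 31608 CPM for adipocyte genes in eWAT, 45989 to 82651 CPM for skeletal muscle genes in GAS and 5223 to 7148 CPM for round spermatid genes in round spermatids. Sperm libraries differed in their mitochondrial share, with 84.3%, 78.1% and 79.0% of counts from mtDNA on HFD and 63.4%, 64.7% and 43.5% on LFD.

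P450 transcripts were a large class in liver and a small one elsewhere. The 98 genes together held 3.09% ± 0.623 of all gene counts in liver (mean ± SD, n = 6), from 2.39% in library 15 to 4.25% in library 24. In eWAT they held 0.102% ± 0.0210 (n = 6) and in GAS 0.0213% ± 0.00232 (n = 6). In these 3 tissues no library of one overlapped the next. Round spermatids had 0.0149% ± 0.000425 (n = 6), morulae 0.0761% ± 0.00634 on HFD and 0.0680% ± 0.00681 on LFD (n = 3 each), and sperm 0.00577% ± 0.00184 on HFD and 0.0282% ± 0.0200 on LFD (n = 3 each). The sperm values follow the mitochondrial share as well as the P450 counts, since on nuclear genes alone the P450 share was 0.0293% on HFD and 0.0615% on LFD, with libraries at 0.0238% to 0.0360% and 0.0344% to 0.0899%, which overlap.

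**Figure D1:**
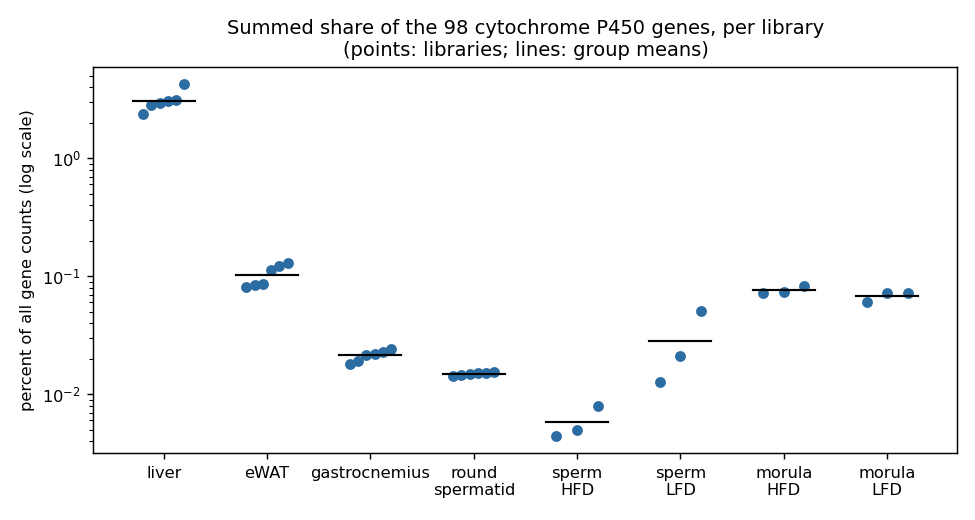
The vertical axis gives the summed count of the 98 P450 genes as a percent of all gene counts on a log scale, each point is a library and each line a group mean. The 6 liver libraries lie between 2.39% and 4.25%, above every other library, and the LFD sperm libraries are spread the most.

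The number of members read followed the same order among the 3 offspring tissues. A mean of at least 1 CPM was reached by 56 of the 98 genes in liver, 40 in eWAT and 13 in GAS, and a mean of at least 100 CPM by 26, 5 and 1. No count at all was seen for 22 members in liver, 32 in eWAT and 66 in GAS, at depths that differ between the tables. In the whole-transcript libraries, 22 members reached 1 CPM in round spermatids, 15 in sperm and 11 in morulae. On a common scale, 44 members had at least 10 CPM in 1 or more of liver, eWAT and GAS, of which 41 were highest in liver and 3 in eWAT.

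**Figure D2:**
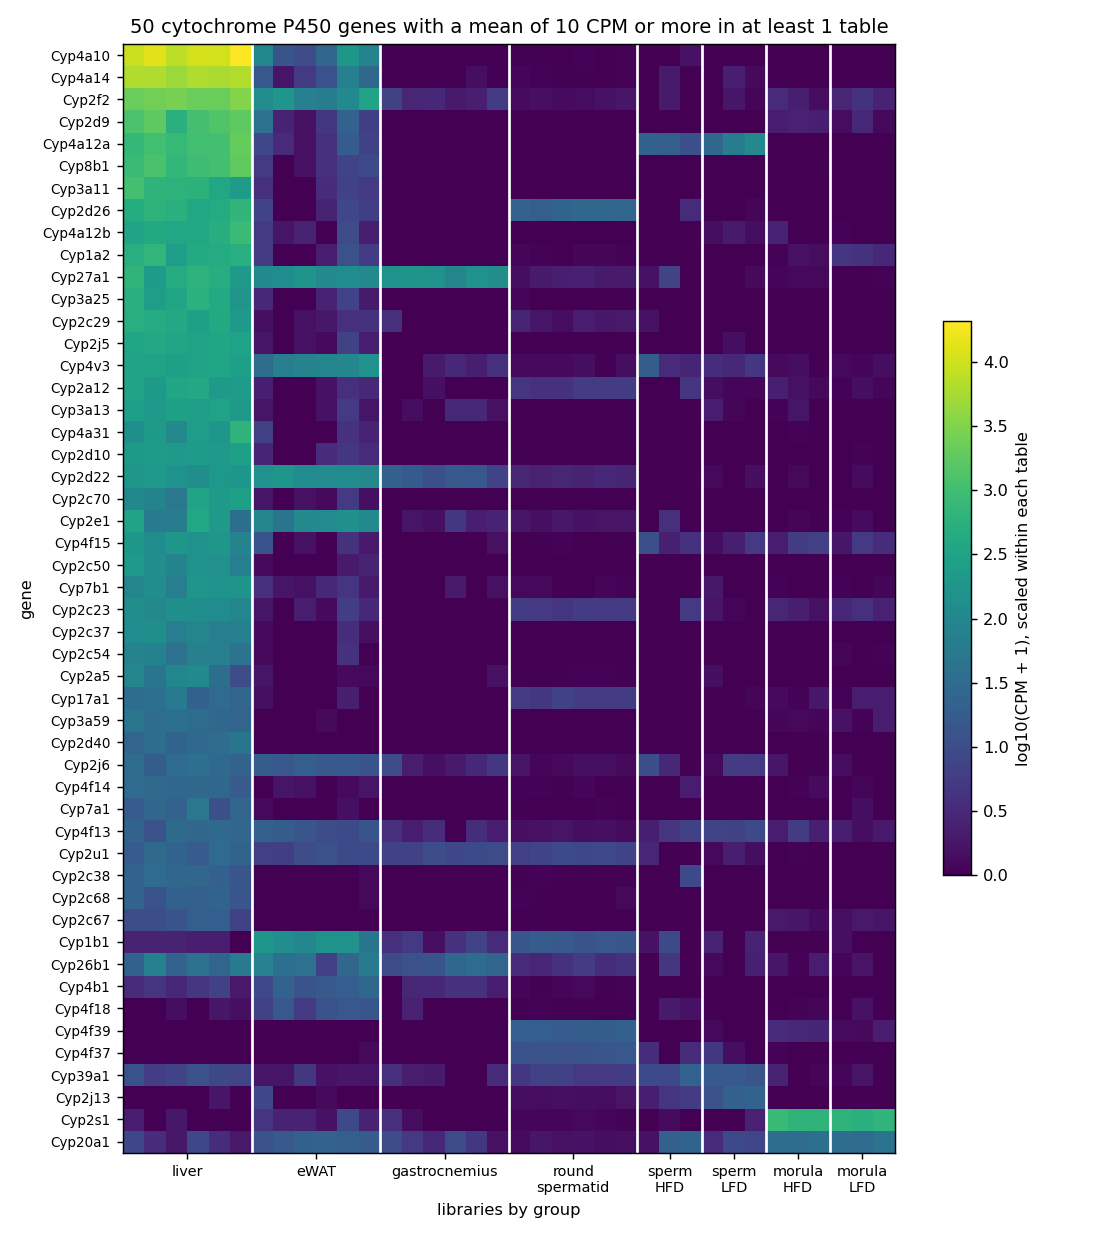
Rows are the 50 P450 genes with a mean of at least 10 CPM in 1 table or more, columns are libraries by group, and colour is log10(CPM + 1), scaled within each table. Most genes are bright in the 6 liver columns alone, while Cyp2s1 and Cyp20a1 are bright in morula and Cyp2d26 and Cyp4f39 are seen in round spermatids.

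In liver, the omega-hydroxylases of subfamily Cyp4a made up most of the P450 transcripts. The 8 Cyp4a genes held 64.1% ± 4.91 of all P450 counts (mean ± SD, n = 6). Cyp4a10 (ENSMUSG00000066072, chr4:115518264-115533649, plus strand), which hydroxylates the end carbon of medium and long fatty acids, had a lowest, median and highest level of 7754, 10797 and 20753 CPM. Cyp4a14, its neighbour and the other PPARalpha target, had 4649, 6275 and 6700 CPM. Library 24 was the highest for both, with 20753 CPM of Cyp4a10, and library 15 the lowest. The male-biased pair Cyp4a12a and Cyp4a12b followed with means of 1108 ± 452 and 482 ± 197 CPM, but 47.6% of the 50-base words in the last 400 bases of Cyp4a12a also occur in Cyp4a12b, so the split between them is uncertain. All 5 Cyp4a genes above 10 CPM were highest in library 24.

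Among the subfamilies that oxidise foreign compounds, a few genes led each. Cyp2f2, the single Cyp2f gene and known for activating naphthalene, held 8.25% of P450 counts at 2111, 2355 and 3312 CPM (lowest, median and highest). The 8 Cyp2d genes held 7.35%, led by Cyp2d9, a male-biased steroid hydroxylase, at 559, 1327 and 1755 CPM, and by Cyp2d26 at 520 ± 108 CPM. The 9 Cyp3a genes held 4.40%, with Cyp3a11, the main drug-oxidising Cyp3a enzyme of mouse liver, at 247, 602 and 1060 CPM. Cyp3a25 followed with 393 ± 161 CPM. The 15 Cyp2c genes together held 3.49%, level with the single bile acid gene Cyp8b1 at 3.49%, with Cyp2c29 highest at 384 CPM on average. Cyp1a2, which oxidises caffeine and aromatic amines, had 249, 487 and 683 CPM, while its sister gene Cyp1a1 had at most 3 counts summed over the libraries of any of the 3 tissues.

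The genes of bile acid synthesis differed widely in level. Cyp8b1, the sterol 12-alpha-hydroxylase that sets the share of cholic acid, was the highest at 734, 991 and 1842 CPM (lowest, median and highest of 6). Cyp27a1, the mitochondrial sterol 27-hydroxylase, had 209, 472 and 655 CPM. Cyp7b1, the oxysterol 7-alpha-hydroxylase, had a mean of 134 ± 44.3 CPM. Cyp7a1, the rate-limiting enzyme of the classical pathway, was at 10.4, 23.2 and 51.8 CPM. Cyp8b1 was highest and Cyp27a1 lowest in the same library, number 24, so the members of this pathway did not vary together across the 6 libraries.

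Several liver P450 genes varied more between libraries than most genes did. Over the 41 members with a mean of at least 10 CPM, the median ratio of the highest to the lowest library was 2.40, beside 1.81 over all 5793 genes at that level, and a ratio above 2 was seen in 27 of the 41 (65.9%), beside 36.9% of all genes. A ratio above 5 was seen in 4 (9.76%), beside 1.14%. Without library 24, an alternative chosen after seeing the data, the medians became 1.92 over the members and 1.65 over all genes, and 18 members (43.9%) had a ratio above 2, beside 25.4% of all genes. The biological coefficient of variation, an estimate of the spread between libraries beyond counting noise, had a median of 0.255 over the members and 0.211 over all genes at that level. These values describe the 6 libraries, since their tolerance status is not known from the columns.

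The 5 most variable members came from 5 subfamilies and have different substrates. Cyp2a5, the coumarin 7-hydroxylase, had 94.3, 47.3, 93.1, 109 and 34.6 CPM in libraries 13, 14, 15, 16 and 23 and 9.36 CPM in library 24. Cyp2e1, the ethanol and acetone oxidase, had 328, 58.0, 64.8, 370, 210 and 35.5 CPM in libraries 13, 14, 15, 16, 23 and 24. It was thus high in 13, 16 and 23 and low in 14, 15 and 24, with a ratio of 10.4 that remained 6.38 without library 24. The ratio of Cyp2a5 was 11.7, and it fell to 3.15 without library 24. Cyp2c70, which makes muricholic acids in the mouse, had 103, 88.9, 50.05, 333, 213 and 284 CPM in the same order of libraries. Its ratio of 6.65 became 3.74 without library 15, the lowest. Cyp4a31 had 140, 224, 106, 257, 184 and 631 CPM, and its ratio of 5.94 became 2.42 without library 24. Cyp7a1 had 16.8, 25.7, 22.2, 51.8, 10.4 and 24.1 CPM, with a ratio of 4.96 that became 2.46 without library 16. Library 24 was therefore the extreme for 3 of these 5 genes, as the lowest for Cyp2a5 and Cyp2e1 and the highest for Cyp4a31.

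Of the 41 genes above 10 CPM, 11 were highest (26.8%) and 15 lowest (36.6%) in library 24, beside 23.6% and 23.1% of all 5793 genes at that level, for which it was also the most frequent extreme. In library 15, 3 were highest (7.32%) and 10 lowest (24.4%), beside 14.9% and 14.2% of all genes. Cyp3a11 had 1060, 646, 621, 583, 392 and 247 CPM in libraries 13, 14, 15, 16, 23 and 24. Cyp27a1 had 655, 231, 458, 628, 485 and 209 CPM. Both were highest in library 13 and lowest in library 24, whereas Cyp4a10, with 9443, 13508, 7754, 11124, 10469 and 20753 CPM, was highest in library 24. The 7 listed periportal genes summed to between 2305 CPM in library 24 and 6770 CPM in library 13, although Ass1 and Hsd17b13 were lowest in library 23. Pck1, of gluconeogenesis, had 3306, 1119, 1880, 3507, 2873 and 625.9 CPM in the same order and was lowest in library 24. Cps1, the urea cycle entry enzyme, had 1811, 579, 1065, 1380, 1077 and 416 CPM, so libraries 14 and 24 were low for it as they were for Cyp2e1 and Cyp27a1. Glul, a pericentral gene, had 656, 935, 288, 667, 640 and 654 CPM, and library 15 was its lowest as it was for Cyp1a2 and Cyp2d9. Of the other 5 listed pericentral genes, Oat, Slc1a2 and Axin2 were lowest in library 24 and Lgr5 and Rhbg in library 14. The summed hepatocyte markers varied less, from 46281 to 63044 CPM, and adipocyte (22.6 to 85.2 CPM) and leukocyte markers (32.9 to 94.5 CPM) were low in every liver library. On the joint scale library 24 was the highest for Cidec (92.7 CPM against 19.6 to 43.5) and Lyz2 (67.4 against 18.1 to 34.0). It was also highest for the muscle genes Myh4 (29.7 against 1.46 to 5.82) and Tnnt3 (30.9 against 3.19 to 7.75). Laptm5 was highest in library 15, at 15.4 CPM. Fabp4, an adipocyte gene like Cidec, was highest in library 16, at 24.1 CPM against 13.6 CPM in library 24. Of the other listed adipocyte genes, Adipoq, Plin1 and Retn reached at most 12.7, 0.509 and 1.06 CPM in any liver library, and Lep had no count. The part of these genes in the P450 spread was not tested.

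Other members were even. Cyp4v3, a fatty acid hydroxylase, had 310 ± 27.3 CPM and a highest-to-lowest ratio of 1.26. Cyp2j5, an arachidonic acid epoxygenase, had 349 ± 32.4 CPM and a ratio of 1.28. Cyp2d10 had 232 ± 22.1 CPM and a ratio of 1.29, though 39.7% of the words in its last 400 bases occur in another gene. Cyp4a14, at 6052 ± 726 CPM, had a ratio of 1.44, against 2.68 for its neighbour Cyp4a10.

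**Figure D3:**
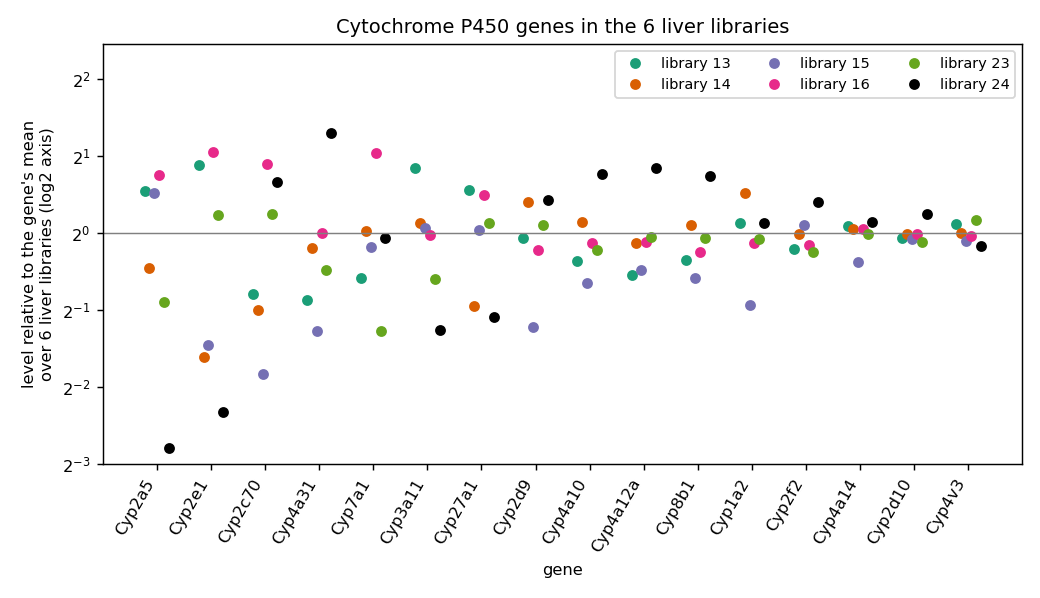
Each point is the level of a gene in 1 of the 6 liver libraries divided by the gene's mean over them, on a log2 axis, with colour for the library. Library 24 (black) is lowest for Cyp2a5 (9.36 CPM), Cyp2e1 (35.5 CPM) and Cyp3a11 (247 CPM) and highest for Cyp4a10, Cyp4a12a, Cyp4a31 and Cyp8b1, while Cyp4v3 and Cyp2d10 stay close to 1.

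Liver was compared with GAS and eWAT in a joint fit of the 18 libraries (edgeR quasi-likelihood test, adjusted p under 0.05). Of the 98 members, 47 passed the filter on low counts, most of them through their level in liver, so that a gene read only there had to differ. Liver was higher than GAS for 42 of the 47 members (89.4%), beside 34.9% of all 10851 genes tested, and lower for 1 (2.13%), beside 31.4%. The median log2 difference was 9.75 over the members and 0.06 over all genes, and for all 42 the 6 liver libraries lay above the 6 GAS libraries. Bulk levels of this kind cannot tell fewer cells of a type from less RNA per cell. Cyp4a10 had 160740 counts in liver and none in GAS, which makes it at least 38711-fold higher in liver against a floor of 3 counts over the GAS libraries. By the same bound Cyp2d9 was at least 4141-fold, Cyp8b1 at least 3503-fold and Cyp3a11 at least 1868-fold higher. Cyp2f2, with 23 counts in GAS, was higher in liver by 9.96 ± 0.50 on the log2 scale (adjusted p = 4.1e-14).

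By role, most tested members had passed the filter on low counts through their liver reads, which set their direction, so the following counts are a description beside the 34.9% of all genes that were higher in liver than in GAS. All 5 tested genes of bile acid and oxysterol metabolism, of 6 listed, were higher in liver than in GAS and than in eWAT. All 5 tested Cyp4a genes of 8, all 9 tested Cyp2c genes of 15, all 5 tested Cyp2d genes of 8 and all 4 tested Cyp3a genes of 9 were higher in liver than in GAS. The genes not tested had too few counts in all 3 tissues. None of the 5 Cyp2b genes was tested, the CAR target Cyp2b10 having 12 counts in liver and 137 in eWAT. Of the steroid hormone genes only Cyp17a1, the 17-alpha-hydroxylase, was tested, with 465 counts in liver, 7 in eWAT and none in GAS, while Cyp11a1, Cyp11b1, Cyp11b2 and Cyp19a1 had no count in liver. None of the 3 vitamin D genes was tested, with 57 counts of the 25-hydroxylase Cyp2r1 in liver as the most. The female-biased Cyp3a41a had no count in any of the 6 tables, but all words in its last 400 bases also occur in Cyp3a41b, so that reads from the end of either gene could not be placed uniquely.

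The electron donors and regulators of P450 enzymes were tested in the same fit. Of the 6 redox partner genes tested of 7 listed, 5 were higher in liver than in GAS and 6 higher in liver than in eWAT, beside 34.9% and 28.9% of all genes. With library totals in place of TMM factors the 5 against GAS stayed at 5, but against eWAT only Cyb5a of the 6 passed, beside 12.96% of all genes. Por, the P450 reductase, was higher in liver than in GAS by 4.83 ± 0.26 and than in eWAT by 1.24 ± 0.21 on the log2 scale. Of the 13 regulator genes tested of 14 listed, 11 were higher and 2 lower in liver than in GAS, beside 34.9% and 31.4% of all genes. Against eWAT, 9 were higher and 1 lower in liver, beside 28.9% and 32.6%. With library totals the counts against eWAT were 9 and 4, beside 12.96% of all genes higher and 6995 of the 10851 lower.

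A few members were also read in muscle. Cyp27a1 was also the leading P450 gene of muscle, with 94.96, 158 and 172 CPM in GAS (lowest, median and highest), so that liver exceeded GAS by only 1.55 ± 0.25 on the log2 scale (adjusted p = 8.2e-06). Cyp26b1, which breaks down retinoic acid, had 8.86, 18.3 and 30.8 CPM in GAS, and its difference from liver was 1.00 ± 0.47 on the log2 scale (adjusted p = 0.0628). Cyp2d22 followed with 13.8 ± 4.92 CPM and Cyp2u1, a fatty acid hydroxylase of extrahepatic tissues, with 7.56 ± 1.43 CPM, and both were higher in liver, by 3.75 ± 0.22 and 1.55 ± 0.24 on the log2 scale. Cyp1b1 was the single member lower in liver than in GAS, by -1.53 ± 0.57 on the log2 scale (adjusted p = 0.0226), at 17 counts in liver and 36 in GAS, so this difference rests on few reads. Cyp20a1, Cyp4b1 and Cyp4f18 had differences between liver and GAS of -0.14, 0.53 and -0.41, which did not pass the test.

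Epididymal fat had 4 P450 genes above their liver level and most others below it. One eWAT library, number 17, stood apart in round spermatid markers and in Sox9, listed as a Sertoli marker. The summed round spermatid markers were 55.4 CPM in it and 0.771 to 3.36 CPM in the other 5. Sox9 had 189.2 CPM in it on the joint scale against 4.40 to 7.86. Of the other listed Sertoli genes, Wt1 had 9.21 CPM in library 17 against 7.40 to 31.1, and Rhox5 had no count in eWAT. Skeletal muscle markers also differed widely between eWAT libraries, with summed levels of 37.5 to 1302 CPM, beside 45989 to 82651 CPM in GAS. The part of muscle RNA in the comparisons of eWAT with liver and GAS was not tested. Liver was higher than eWAT for 42 of the 47 members, beside 28.9% of all genes, and lower for 4 (8.51%), beside 32.6%. Without library 17, an alternative chosen after seeing the data, 43 members were higher and 4 lower. The median log2 difference was 7.65 over the members and -0.07 over all genes. The 4 genes higher in fat were Cyp1b1, Cyp4f18, Cyp4b1 and Cyp20a1. Cyp1b1, an AhR target that oxidises oestradiol, had 46.8, 139 and 186 CPM in eWAT (lowest, median and highest), and liver was lower by -5.71 ± 0.42 on the log2 scale (adjusted p = 4.5e-11). All 6 eWAT libraries were above all 6 liver libraries for it. Cyp4f18, which inactivates leukotriene B4 in myeloid cells, had 188 counts in eWAT and 4 in liver, a difference of -4.05 ± 0.64. Leukocyte markers were also higher in eWAT, with a summed level of 680 to 1338 CPM against 32.9 to 94.5 CPM in liver, and their part in the Cyp4f18 difference was not tested. Cyp4b1 differed by -1.49 ± 0.36 and Cyp20a1 by -1.30 ± 0.43 (adjusted p = 0.011), with overlapping libraries in both.

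The genes highest in eWAT were Cyp2f2 at 64.7, 116 and 312 CPM, Cyp2d22 at 105, 122 and 181 CPM and Cyp27a1 at 107, 121 and 174 CPM (lowest, median and highest), beside Cyp1b1. Cyp2e1 was close behind with 103 ± 33.4 CPM. Liver was higher than eWAT for Cyp2d22 by 1.37 ± 0.18, for Cyp2e1 by 1.69 ± 0.43 (adjusted p = 0.0015), for Cyp27a1 by 2.73 ± 0.26 and for Cyp2f2 by 5.04 ± 0.37 on the log2 scale. The libraries of both tissues overlapped for Cyp2e1, whose liver range is the widest of these, and not for the other 3. With library totals alone the liver and eWAT means were 178 and 103 CPM for Cyp2e1 and 446 and 127 CPM for Cyp27a1. For Cyp2f2 they were 2503 and 142 CPM, so these differences are smaller on that scale.

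The liver genes were next expressed as a share of their liver level in eWAT. On the scale of the joint fit, 27 members had at least 100 CPM in liver. Of these, 22 had a mean in eWAT under 1% of their liver mean, from 0.180% for Cyp8b1 to 0.892% for Cyp4f15, the upper limit being set by the 1% used to choose them. The value of Cyp4f15 rests on library 17, with 42 of its 59 counts, and was 0.331% without it. Without library 26 the 22 genes lay between 0.0871% for Cyp2c37 and 0.848% for Cyp4f15. These alternatives were chosen after seeing the data. The 5 others were Cyp2f2 at 3.03%, Cyp4v3 at 15.04%, Cyp27a1 at 15.05%, Cyp2e1 at 30.8% and Cyp2d22 at 38.7%. These shares are higher with library totals, since the joint factors lower eWAT levels. Of 5 hepatocyte markers, which encode blood proteins of the liver, Ttr was the lowest at 0.182%, Alb had 0.236% and Apoc3 was the highest at 0.420%. These marker values include library 26, so they stand beside the P450 range over all libraries and not the one without library 26. The 2 quantities were highest in the same library, since the summed hepatocyte markers were 0.208%, 0.0378%, 0.0970%, 0.136%, 0.635% and 0.334% of the liver mean in eWAT libraries 17, 18, 22, 25, 26 and 27, and the median of the 22 members was 0.305%, 0%, 0.0242%, 0.126%, 0.891% and 0.366%. Cyp4a10 had 104, 12.5, 8.96, 25.4, 188 and 84.6 CPM in these libraries. The part of hepatocyte RNA in these levels was not tested.

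**Figure D4:**
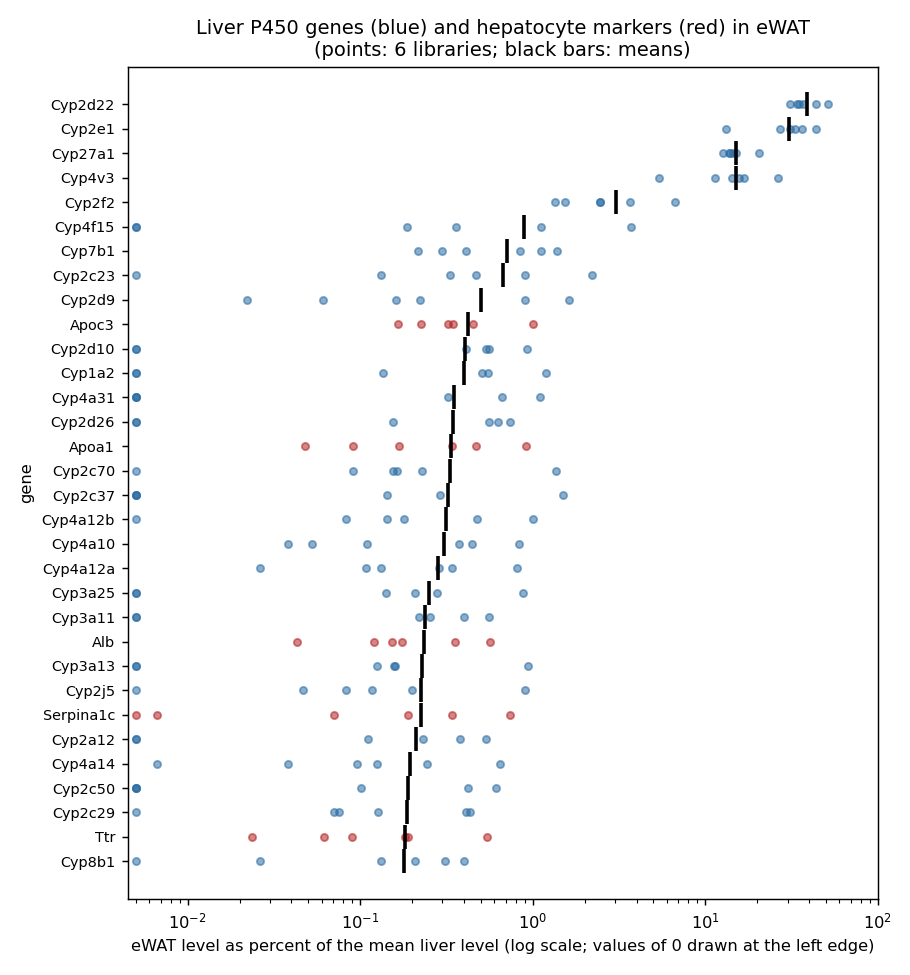
The horizontal axis gives the level in eWAT as a percent of the mean level in liver on a log scale, with a point for each of the 6 eWAT libraries, a black bar for the mean, blue for the 27 P450 genes with at least 100 CPM in liver and red for 5 hepatocyte markers. The means of 22 P450 genes lie under 1%, from 0.180% to 0.892% beside 0.182% to 0.420% for the markers, and those of Cyp2f2, Cyp4v3, Cyp27a1, Cyp2e1 and Cyp2d22 lie between 3.03% and 38.7%.

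Between eWAT and GAS, 28 of the 47 members were higher in eWAT (59.6%), beside 41.1% of all genes, and 2 were lower (4.26%), beside 26.3%. Of the 28, 17 belonged to the genes under 1% of their liver level. When eWAT libraries 17, 26 and 27, which had the highest hepatocyte marker sums relative to liver, were left out together, an alternative chosen after seeing the data, 16 of the 28 still passed, with 3 eWAT libraries left in the test. These were 6 of the 17 and 10 of the 11 others, beside 87.1% of the 4465 genes that had been higher in eWAT, and the difference between the sets was not tested. The libraries left out also had the highest median of the genes under 1% of liver. Their removal thus favoured a loss among the 17, and no conclusion is drawn from it. Without library 17 alone, 25 members were higher in eWAT. Cyp1b1 was higher in eWAT by 4.19 ± 0.39 (adjusted p = 2.7e-09), Cyp4v3 by 5.14 ± 0.45 (adjusted p = 8.9e-10) and Cyp2e1 by 5.26 ± 0.70 on the log2 scale. The 2 genes lower in eWAT were Cyp27a1, by -1.18 ± 0.25 (adjusted p = 0.00022), and Cyp2u1, by -0.91 ± 0.25 (adjusted p = 0.0031). Both calls depend on the scaling, as does the balance over all genes: with library totals in place of TMM factors neither passed, 34 of the 47 members were higher in eWAT, the median over all genes moved from 0.35 to 1.32, and 7357 genes were higher and 1227 lower in eWAT, in place of 4465 and 2853. For liver against eWAT the same change moved that median from -0.07 to -0.996 and the calls from 3138 higher and 3542 lower to 1406 and 6995.

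Round spermatids, read more deeply than any other library, had many P450 genes at low levels. A count in every library was seen for 49 of the 98 members, but 4 reached 10 CPM and none reached 100. Cyp2d26 had 19.1, 24.1 and 27.1 CPM (lowest, median and highest), or 14.5 CPM per kilobase on average. Cyp4f39, which hydroxylates very long fatty acids for the skin barrier, had 17.1, 18.1 and 20.9 CPM, or 11.5 per kilobase. Cyp4f37 had 12.2 ± 1.26 CPM, or 4.62 per kilobase. Cyp1b1, described above for fat, was also among these 4, with 14.1 ± 1.86 CPM, or 2.75 per kilobase. As a subfamily Cyp4f held 21.7% of the P450 counts of round spermatids and Cyp2d 17.3%, against 0.714% and 7.35% in liver, where the kit differs. Cyp4f39 and Cyp4f37 had no more than 1 count in any eWAT library and none in GAS.

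The steroid hormone genes were read in round spermatids and, apart from Cyp17a1 in liver (34.4 CPM), hardly in the 3 offspring tissues. Cyp17a1, needed for androgen synthesis, had 730 counts and 4.83 ± 0.76 CPM, and Cyp11a1, the side-chain cleavage enzyme that starts steroid synthesis, had 333 counts. Cyp19a1, the aromatase, had 992 counts and 6.57 ± 0.922 CPM. Cyp11b1 and Cyp11b2, the last enzymes of corticosterone and aldosterone synthesis, had 1307 and 632 counts, but Cyp11b1 overlaps an exon of the antisense gene Gml2, and without a stated strand setting their reads cannot be told apart. Markers of Leydig cells, the steroid-making cells of the testis, summed to 13.5 to 18.04 CPM in these libraries, with Star at 6.21 CPM and Insl3 at 4.94 CPM, and their part in the Cyp17a1 and Cyp11a1 levels was not tested. Cyp46a1, the cholesterol 24-hydroxylase known from brain, had 7.65 ± 0.885 CPM. The 4 members above 10 CPM had highest-to-lowest ratios between these libraries of 1.22 to 1.45, with a median of 1.36 beside 1.19 over all genes at that level.

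In morulae 1 gene stood for the family. Cyp2s1 (chromosome 7, minus strand), an extrahepatic P450 of epithelia, had 546, 650 and 804 CPM (lowest, median and highest of 6), or 133 CPM per kilobase, and held 91.2% ± 1.17 of all P450 counts. It had 46747 counts in morulae against 26 in round spermatids, 11 in sperm, 5 in liver, 56 in eWAT and 2 in GAS. An exon of the antisense gene Gm26707 overlaps it. Cyp20a1, an orphan P450 with no settled substrate, came second with 35.8 ± 4.31 CPM, or 15.7 per kilobase. Cyp4f15 followed with 1.41 per kilobase, a level at which single libraries ranged from 0.814 to 5.63 CPM.

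In sperm the P450 genes were read thinly. Per kilobase, Cyp4a12a was the highest over both diets with 17.04 CPM, having 17.1 ± 5.84 CPM on HFD and 65.4 ± 39.6 on LFD. The rank does not hold in every HFD library. In numbers 3 and 4 Cyp20a1 lay above it, with 59 counts against 57 and 38 against 17. Cyp20a1 with 4.48 and Cyp39a1, an oxysterol 7-alpha-hydroxylase, with 4.47 followed and are not ordered, Cyp20a1 having 14.8 ± 12.3 CPM on HFD and 5.74 ± 3.06 on LFD and Cyp39a1 12.8 ± 8.07 and 14.5 ± 1.94 CPM. A count in every library was seen for 8 members. Markers of the epididymal epithelium, which surrounds the sperm in the cauda, were present at 1631 to 9099 CPM in the same libraries, and were at most 0.752 CPM in round spermatids.

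The first diet comparison asked whether the father's diet changes the RNA of his sperm. No member passed (edgeR quasi-likelihood test, 8 of 98 members tested among 8643 genes, lowest adjusted p of a member 0.232), and over all genes 0% passed. At an unadjusted p under 0.05, 2 of the 8 members differed, beside 13% of all genes tested, and 2 had no overlap between the diets, beside 20.4%. With DESeq2 1 member passed, among 295 of all genes. The 8 tested members had 4 positive and 4 negative differences, with a median of -0.04, against -0.07 over all genes, but with library totals in place of TMM factors all 8 were negative.

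Cyp4a12a had 21.3, 19.6 and 10.4 CPM on HFD and 27.1, 62.9 and 106 CPM on LFD. All HFD libraries were below all LFD libraries, and the difference was -1.93 ± 0.57 on the log2 scale (unadjusted p = 0.0046, adjusted p = 0.232). Its reads cannot be fully separated from those of Cyp4a12b, which shares 40.8% of its 75-base words. Cyp2j13, an epoxygenase-type gene of the Cyp2j cluster, had 2, 10 and 8 counts on HFD and 51, 96 and 150 on LFD, or 1.29, 3.44 and 4.92 CPM against 11.5, 20.2 and 22.7 CPM. This was the largest fall among the tested members, by -2.47 ± 0.73 on the log2 scale (unadjusted p = 0.0042, adjusted p = 0.232), and DESeq2 gave -2.34 with an adjusted p of 0.0375. Beside these genes, the epididymal epithelium markers summed to 3714, 3639 and 3586 CPM on HFD and 1631, 5015 and 9099 CPM on LFD. The LFD libraries kept the same order for Cyp4a12a and for Cyp2j13, lowest in the first and highest in the last. All HFD libraries were above the first LFD library in these marker sums and below it for both genes. Leukocyte markers were 54.9, 83.6 and 83.0 CPM on HFD and 25.996, 34.9 and 18.01 CPM on LFD. Per the study's methods, sperm were purified by swim-up and treated with a lysis buffer, and samples with visible somatic cells were left out. The part of other cells in these differences was not tested.

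Among the tested members, Cyp20a1 and Cyp4v3 had the highest positive differences, 1.36 ± 0.92 and 1.34 ± 0.99 on the log2 scale, which are not ordered. Cyp20a1 had 0.646, 20.3 and 23.3 CPM on HFD and 2.26, 7.99 and 6.96 CPM on LFD, with overlapping diets (adjusted p = 0.574), and its difference turned to -0.42 with library totals. Cyp39a1 differed by -0.19 ± 0.62 (adjusted p = 0.931). The scaling matters in sperm: TMM factors were 0.517, 0.716 and 0.442 on HFD and 1.52, 1.56 and 2.58 on LFD, and with library totals the median over all genes moved to -1.82 and that of the members to -1.90, so that 4 members passed, all lower on HFD, as 3266 of the 8643 genes tested then passed in either direction.

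The second diet comparison asked whether morulae differ by the diet of their fathers. Again no member passed (edgeR quasi-likelihood test, 13 of 98 members tested among 13447 genes, lowest adjusted p of a member 0.456), with 0% over all genes. DESeq2 called 18 genes, none of them a member, but gave no adjusted p for Cyp1a2, Cyp4f39 and Cyp4f15. At an unadjusted p under 0.05, 2 of the 13 differed (15.4%), beside 6.38% of all genes, and 2 had no overlap, beside 12.1%. The median difference was -0.06 over the members and 0.01 over all genes.

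Cyp1a2 had the largest fall, with 0.0883, 0.589 and 0.397 CPM on HFD and 3.91, 3.37 and 2.14 CPM on LFD, which rest on 1, 7 and 5 counts and on 48, 38 and 25 counts. The diets did not overlap, and the difference was -3.09 ± 0.69 on the log2 scale (unadjusted p = 0.00049, adjusted p = 0.456). Without the filter on low counts its adjusted p was 0.0245. Hepatocyte markers, a check for liver RNA, were at 7.59, 6.56 and 9.92 CPM on HFD and 10.6, 7.89 and 5.15 CPM on LFD and overlapped between the diets. Cyp4f39 had the largest rise, with 2.30, 2.02 and 1.75 CPM on HFD and 0.326, 0.266 and 1.201 CPM on LFD, a difference of 1.74 ± 0.71 (unadjusted p = 0.028, adjusted p = 0.729). With 1 library left out this difference lay between 1.39 (without LFD library 2) and 2.72 (without LFD library 3). The genes with many reads were close between the diets. Cyp2s1 had 804, 649 and 631 CPM on HFD and 651, 546 and 670 CPM on LFD, a difference of 0.16 ± 0.10 (adjusted p = 0.846). For Cyp20a1 the difference was -0.06 ± 0.15 (adjusted p = 0.975).

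**Figure D5:**
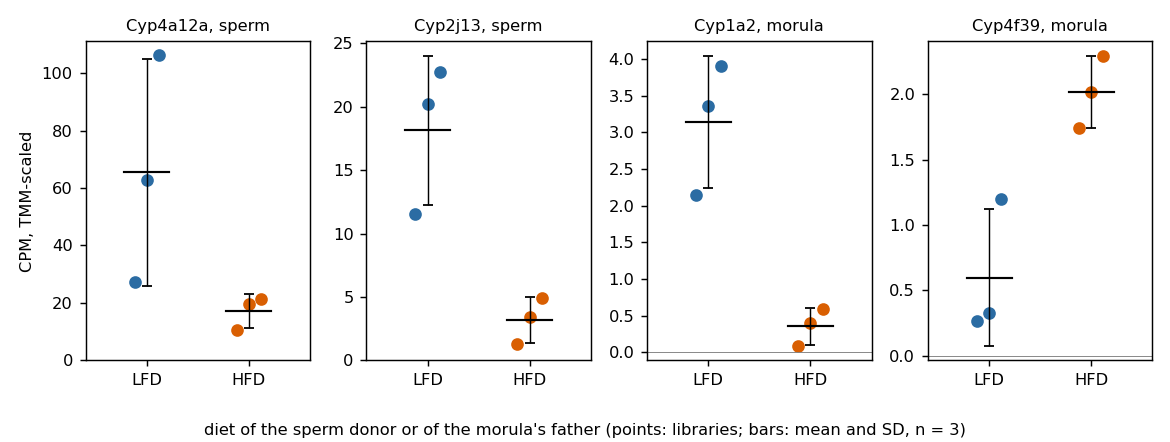
Each panel shows 1 gene, with the TMM-scaled level in CPM on the vertical axis, a point for each of 3 libraries per diet, and the mean and SD as bars. Cyp4a12a and Cyp2j13 in sperm and Cyp1a2 in morula are lower on HFD and Cyp4f39 in morula is higher, without overlap of the libraries, while none passed the adjusted threshold.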

How the data were processed

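RNA-seq count tables of sperm, morula, round spermatid, liver, eWAT and GAS were used. The deposited values are raw featureCounts counts per gene, whole numbers that the authors did not normalize, from reads trimmed by BBDuk and aligned to GRCm38 by STAR. Tool versions, strand setting and the handling of multi-mapped reads are not given in the sources used here. An antisense exon of another gene overlaps 11 members, among them Cyp4f18, Cyp2f2 and Cyp2u1. Over 10% of the last 400 bases are shared with another gene in 30 members, among them Cyp2d22 (19.2%). Sperm, morula and round spermatid libraries were made with Nextera and tissue libraries with QuantSeq 3′ FWD. The purity of the round spermatids was checked by microscopy, per the study's methods. Library totals (given in the report) set the counting error, and the floors cover counting error only.

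Levels are TMM-scaled CPM within a table, and comparisons between offspring tissues use the factors of the joint fit (0.759 to 0.847 in liver, 1.44 to 1.70 in eWAT, 0.744 to 0.853 in GAS), on which an eWAT level is lower. Tests were two-sided, made with edgeR 4.0.16 under R 4.3.3 (low genes removed by filterByExpr at min.count 10, TMM, glmQLFit and glmQLFTest, Benjamini-Hochberg adjustment over all genes tested, threshold 0.05), with HFD over LFD in sperm and in morula and 3 tissue contrasts in a fit of 18 libraries. The study's own test, NOISeq, was not used here. SEs are the absolute log2 fold change divided by the root of F. Alternatives were DESeq2 1.42.0, DESeq2 size factors, library totals, no filter, a fold threshold, an unadjusted threshold, a block by column number and leaving out libraries. The edgeR fit was tested on simulated counts for sperm, for morula and for liver against GAS. No 2 libraries of a group agreed within sampling noise (chi-square per degree of freedom at least 3.50). Promoters are from RefSeq. The members, their roles and the gene lists were chosen with earlier results of these data known. Genes are named by rule: the 12 highest in liver, the 5 most variable there, the 4 highest in eWAT and GAS, the 3 highest per kilobase in the other tables, members with fixed roles, and the largest rise and fall by diet. Cyp2c29, Cyp2c37, Cyp4v3, Cyp2j5, Cyp2d10, Cyp4f18 and Cyp4b1 were named after their values were seen.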

Additional observations from a re-analysis of the deposited data

Results flagged for a closer look

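Of 41 groups of 6 libraries tested with Dixon's gap criterion, 8 held a library far from the other 5. Chance alone marks about 1 in 20 groups, but only for genes not chosen by their values. Cyp4a31 and Cyp7a1, both among the 8, are also among the genes named for their large ratio in liver. The count of 8 can therefore not be read against that rate. Of the 8, 4 are Cyp4a genes in liver. Cyp4a12a stood at 1992 CPM, Cyp4a12b at 871 CPM and Cyp4a31 at 631 CPM in library 24, each above the other libraries. The first pair shares reads, so they are not independent. Cyp4a14 was set apart in the other direction, at 4649 CPM in library 15. Cyp7a1 stood at 51.8 CPM in liver library 16. In eWAT, Cyp27a1 was at 174 CPM in library 22 and Cyp4a14 at 73.1 CPM in library 26, the library with the most hepatocyte marker RNA (650 CPM summed). In round spermatids Cyp4f39 was at 20.9 CPM in library 69, above a narrow range of 17.1 to 18.3 CPM in the others. The causes were not tested.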

How the results depend on the processing

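The calls of 42 members higher in liver than in GAS and of 42 higher in liver than in eWAT stayed at 42 when eWAT library 26, GAS library 4 or liver library 24 was left out (chosen after seeing the data). Over the other settings they ranged from 42 to 57 and from 40 with library totals to 58, both highest without the filter, and the 4 lower in liver than in eWAT ranged from 3 to 6. In sperm 4 members passed with library totals, 1 with DESeq2 and 2 unadjusted, and 0 without any 1 library. In morula 1 passed without the filter (of 53 members tested, among 63 genes called) and 2 unadjusted, and 0 without any 1 library. The sperm column names share numbers 1 and 4 between diets, which the labels do not state to be a pairing (correlation of same-numbered deviations 0.103 and -0.136), and a fit with that block called 0 members; morula columns share no number. Reversed directions were those of Cyp20a1 (-0.42), Cyp4v3 (-0.54), Cyp2j6 (-1.52) and Cyp4a30b (-1.79) in sperm with library totals, and, among the genes recomputed under every setting, Cyp39a1 in sperm without HFD library 1 or 3 (-0.83 to 0.057 over the 6 left-out libraries) and Cyp20a1 in morula without LFD library 3 (-0.17 to 0.0732 over 6), and none of these passed. Members lower in eWAT than in GAS were 0 with library totals and 1 with an absolute log2 fold change of at least 1, and members higher there were 16 without eWAT libraries 17, 26 and 27. On nuclear genes the summed share was 4.07% in liver, 0.0341% in GAS, 0.102% and 0.0903% in morula on HFD and LFD, and 0.0293% and 0.0615% in sperm. Requiring a count in every library gave 23 members in eWAT, 8 in GAS, 49 in round spermatids and 8 in sperm. The causes were not tested. The depth of sperm and of GAS library 4 limits the low members.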

Other observations

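Cyp51, left out by the symbol rule, had its highest level in round spermatids at 79.8 ± 5.46 CPM, with 18.1 per kilobase, above each of the 98 members per kilobase there. Its level was 38.1 ± 9.44 CPM in liver, 19.4 ± 4.38 CPM in eWAT and 2.21 ± 2.23 CPM in GAS. Cyp26a1, the other retinoic acid hydroxylase of liver, had 34 counts in liver, 1 in eWAT and none in GAS, against 40.7 CPM of Cyp26b1 on average in liver. Cyp24a1, which inactivates vitamin D, had 151 counts in round spermatids and none in the other 5 tables. It overlaps an exon of the antisense gene Pfdn4, and without a stated strand setting their reads cannot be told apart. Cyp2b10 reached 20.99 CPM in eWAT library 17 and lay between 1.12 and 5.32 CPM in the other 5 eWAT libraries. Library 17 is the one that stood apart in round spermatid markers and Sox9, and their part in this level was not tested. In eWAT, 13 of the 15 members with at least 10 CPM passed the filter on low counts and had a median highest-to-lowest ratio of 3.20, beside 1.89 over all genes at that level. The other 2 were Cyp4a14, with 1 to 275 counts in single libraries, and Cyp2d9, with 1 to 156.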
